A study of Mus musculus with 8 samples.

Results

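Olfactory receptor genes are read here through the 1170 array probes whose gene name is Olfr followed by a number, and the probes described are the 61 of them that were well above background on all 3 arrays of cells given cordycepin and serum. The well-above-background mark is set by the scanner software for each spot, and on these arrays it amounted to a minimum background-subtracted signal of 11.8 to 16.3 units, depending on the array. The 1170 probes carry 1078 gene names, the 61 probes represent 61 genes, and 60 of them have a position in the mm9 mouse genome, on 14 of the 17 chromosomes that carry such probes. Because the cordycepin arrays chose them, their signal on those arrays is a description and not a finding. The question was how many were also detected without cordycepin, and what was measured upstream of them on the same strand.

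The cells were NIH3T3, an immortalised line of mouse embryonic fibroblasts, held in 0.5% newborn bovine serum for 24 h on 15 cm plates. The first group (NIH3T3-cordycepin-90mins, 3 arrays) received 20 µM cordycepin in DMSO for 90 min and serum for 30 min. By the study's figure legend the serum followed the 90 min of drug. The second group (NIH3T3-serum_control, 3 arrays) received 0.1% DMSO and the same 30 min of serum, and the third (NIH3T3-no-serum_control, 2 arrays) received DMSO without serum. All 3 groups thus shared the starvation and the vehicle, and no array had cordycepin without serum, so that the drug was compared with its vehicle in serum-treated cells only. All 11 of 11 fibroblast marker genes, such as Col1a1, Col3a1 and Vim, were detected in every group. In these bulk RNA samples, a signal from fewer cells and less RNA per cell cannot be told apart.

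Olfactory receptors are G-protein-coupled receptors that bind odorants on the cilia of olfactory sensory neurons. Each such neuron expresses a single receptor gene, and the receptor signals through the G-protein subunit Gnal, adenylyl cyclase 3 and a cyclic nucleotide-gated channel that contains Cnga2. The genes lie in large clusters, often many in a row on the same strand, have a coding region in a single exon, and are silent in most other tissues. Cordycepin is 3′-deoxyadenosine, an adenosine analogue whose triphosphate can end the chain during polyadenylation, which it inhibits. By the study's introduction it does not act as a terminator of total pre-mRNA synthesis in intact cells, although it lowers transcription of specific mRNAs.

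Most of these receptor probes were also detected in cells that never saw cordycepin. Of the 61, 48 (78.7%) were well above background on all 3 serum control arrays, 47 were so on all 5 arrays without cordycepin, and 57 were so on at least 1 of them. Only Olfr921, Olfr1388, Olfr691 and Olfr449 were detected on none of the 5, and Olfr1036 and Olfr267 were detected on 1 no-serum array but on no serum array. The number of olfactory receptor probes detected on every array of a group was 61 (5.21%) with cordycepin, 58 (4.96%) with serum and 75 (6.41%) without serum, against 51.9, 49.7 and 53.3% of all 55681 probes. The 48 shared probes were 82.8% of the 58 detected with serum. The share of olfactory receptor probes detected was thus between 4.96 and 6.41% in every group, with or without the drug. The upper end is that of the no-serum group, where detection was asked on 2 arrays and not on 3.

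Each detected probe is 60 bases long, and the sequences shown next are those of the chromosome 11 receptors whose signal differed most between the groups, because they share sequence. Capitals mark stretches of at least 8 bases that also occur in the Olfr1393 probe, which is given first in lower case, and each is written 5′ to 3′ with its mm9 position on the plus strand.

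Olfr1393, chr11:49094504-49094563: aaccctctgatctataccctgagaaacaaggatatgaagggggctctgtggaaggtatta

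Olfr10, chr11:49131914-49131973: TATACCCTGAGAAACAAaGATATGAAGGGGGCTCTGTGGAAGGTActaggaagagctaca

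Olfr1388, chr11:49258186-49258245: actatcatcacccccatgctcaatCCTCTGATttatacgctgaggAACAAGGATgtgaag

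Olfr1382, chr11:49349519-49349578: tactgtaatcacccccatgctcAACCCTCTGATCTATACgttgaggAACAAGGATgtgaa

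Aligned without gaps, the Olfr10 and Olfr1393 probes were identical at 46 of 48 bases, with 27 in an unbroken run, and the Olfr1382 and Olfr1388 probes at 54 of 59. The Olfr1393 probe matched the Olfr1382 probe at 34 of 38 overlapping bases and the Olfr1388 probe at 34 of 39. By the accessions listed for each probe, that of Olfr10 also represents Olfr1392, that of Olfr1382 also Olfr1373, and that of Olfr1388 also Olfr1371, Olfr1380 and Olfr1381, so their signal cannot be given to a single gene. Such probes with several RefSeq genes were 4 of the 61 (6.56%) and 57 of the 1109 other olfactory receptor probes (5.14%). Within the 61 they were 3 of the 11 probes called higher with cordycepin below (27.3%) and 1 of the other 50 (2%).

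Signal is given in the following as log2 of the processed signal less its 75th percentile on that array. A value of 0 is the level of that percentile. Many undetected olfactory receptor probes lay near -7.5, while weaker signals under the well-above-background mark lay higher than that. A probe was called higher or lower where limma gave an adjusted p under 0.05 over all 30853 probes tested and the log2 difference between group means was at least 1 in size. All 61 probes passed the filter for testing because they were detected on every cordycepin array, which is what selected them. In the mean, 40 were higher and 21 lower with cordycepin than with serum alone, 45 of them by less than 0.5, and the median difference was 0.14 against 0.10 over all probes tested. Called higher were 11 and called lower 0, where 7.63% of all probes tested were called higher and 2.87% lower. Since the selection used the cordycepin side of this contrast, nothing is read from these counts.

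**Figure D1:**
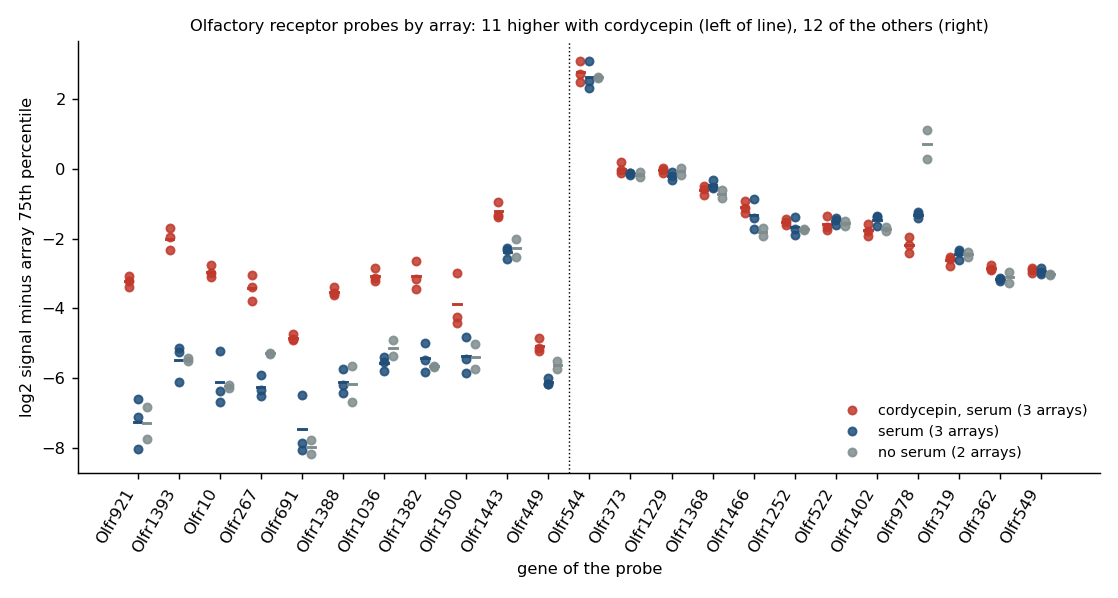
Signal of 23 of the 61 olfactory receptor probes on each of the 8 arrays, as log2 signal minus the array's 75th percentile. Points are arrays, short lines are group means, the 11 probes left of the dotted line were called higher with cordycepin, and the 12 to the right are the brightest of the other 50. The red points of all 11 lie above every blue and grey point of the same probe, as do those of Olfr362 on the right. The cordycepin and serum points of the other probes on the right overlap, apart from Olfr978, which is highest without serum. In some of these probes, such as Olfr1368, the serum points lie above both no-serum points.

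Olfr921 lies on chromosome 9 (chr9:38583625-38583684, plus strand), and its signal with cordycepin was -3.21, -3.08 and -3.39, and that with serum was -8.03, -7.11 and -6.59, with -6.82 and -7.74 in the absence of serum. No array without cordycepin detected it, and its cordycepin arrays lay above all others. As none of the serum values was well above background, the difference is given as at least 4.58-fold.

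On chromosome 11, Olfr1393 gave -1.69, -2.34 and -1.97 with cordycepin. Its serum values were -6.10, -5.25 and -5.13 and its values without serum -5.51 and -5.42, of which 1 in each group was well above background. These groups did not overlap, and the log2 difference was 3.49 (SE 0.27) with 1 of 3 serum arrays well above background. The size of that difference thus rests in part on serum values below the mark. For Olfr10 the cordycepin arrays read -2.76, -3.11 and -2.98, the serum arrays -6.37, -6.69 and -5.22, and the no-serum arrays -6.29 and -6.18. The log2 difference was 3.15 (SE 0.34), again with 1 of 3 serum arrays well above background. Olfr1388 read -3.40, -3.60 and -3.56 with cordycepin, against -6.43, -6.19 and -5.74 with serum and -5.64 and -6.67 without, which is at least 3.74-fold. Olfr1382 read -2.63, -3.43 and -3.15 against -5.48, -4.98 and -5.81 with serum and -5.67 and -5.65 without, a difference of 2.35 (SE 0.25) with 1 of 3 serum arrays well above background. These were 4 of the 5 detected olfactory receptor probes on chromosome 11, which carries 82 such probes in all. The fifth, Olfr319, differed by -0.18.

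Elsewhere in the genome, 6 further probes were called higher. Olfr267 on chromosome 4 (chr4:58797653-58797712, minus strand) read -3.40, -3.05 and -3.80 with cordycepin, -5.91, -6.50 and -6.32 with serum, and -5.27 and -5.31 without serum. It was at least 4.02-fold higher with cordycepin than with serum. Olfr1036 on chromosome 2 (chr2:85915196-85915255, plus strand) read -2.85, -3.23 and -3.14, against -5.80, -5.38 and -5.53 with serum and -4.92 and -5.36 without, at least 5.09-fold. Olfr691 on chromosome 7 read -4.74, -4.88 and -4.91 with cordycepin and between -8.16 and -6.47 on the other 5 arrays, at least 1.50-fold. None of these 3 was detected on a serum array.

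The remaining called probes differed less. Olfr1443 and Olfr1500, both on chromosome 19, differed by 1.18 and 1.48. Olfr449 on chromosome 6, well above background on no serum array, was at least 1.28-fold higher. Olfr1443 was the only called probe detected on all 8 arrays, with -0.95, -1.38 and -1.32 under cordycepin and -2.33, -2.59 and -2.26 under serum. Olfr1500 was the most variable, with -2.99, -4.24 and -4.43 under cordycepin against -4.81, -5.44 and -5.85 under serum, where 1 array was well above background. Its call was lost when any of 6 of the 8 arrays was left out, with differences of 1.03 without the first cordycepin array and 1.24 without the third serum array, and that of Olfr449 was lost without the first cordycepin array. Within each of the 2 rows of the slide the 11 differed by 0.963 to 4.88 in the same direction. These are the arrays that chose them, and part of the serum values were not well above background.

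The number called rested on how background was treated. With the background model normexp and an offset of 50 in place of the scanner software's own subtraction, only Olfr921, Olfr1393 and Olfr10 kept a call, while 2.98% of all probes were called higher. The other 8 still differed in the same direction, by 0.36 to 0.92.

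Most of the brighter probes read the same in all groups. The brightest was that of Olfr544, a receptor for the dicarboxylic acid azelaic acid, with 2.47, 2.71 and 3.08 under cordycepin, 2.32, 3.08 and 2.50 under serum and 2.60 and 2.63 without serum. The arrays of its groups overlapped, and the difference between cordycepin and serum was 0.12 (SE 0.22). Olfr373, Olfr1229 and Olfr1368 followed, with differences of 0.16, 0.16 and -0.14. Olfr1466, Olfr1252, Olfr522, Olfr1402 and Olfr319, also among the 12 brightest, differed by between -0.30 and 0.23. Over the 50 probes not called, the difference ran from -0.88 for Olfr1419 to 0.86 for Olfr920, with a median of 0.07. Of these 50, 47 were detected on all serum arrays, compared with 1 of the 11 called probes. The cordycepin arrays chose the probes, so this split is a description.

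**Figure D2:**
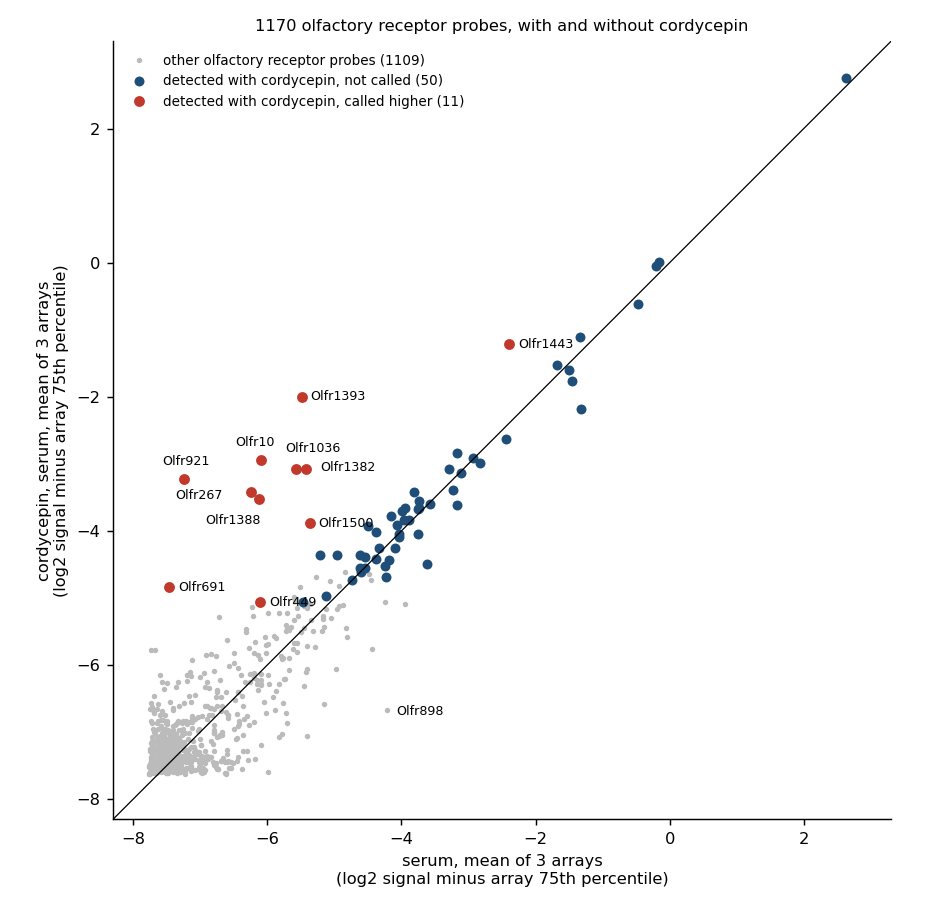
Mean signal of each of the 1170 olfactory receptor probes with serum (x axis, 3 arrays) and with cordycepin and serum (y axis, 3 arrays), both as log2 signal minus the array's 75th percentile, with the line of equality. The 50 blue points follow the line from about -5 to 2.75, the 11 red points lie above it, and the grey points are the 1109 probes not detected on all cordycepin arrays.

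On each array the mark was a sharp cut on background-subtracted signal. Ranked by signal over the spread of the background, which does not set the mark, probes inside and outside the limit overlapped. The members with the lowest signal relative to the spread of the local background on any cordycepin array were Olfr207, Olfr1095 and Olfr259, with ratios of 1.27, 1.28 and 1.34. Outside the limit were Olfr1134, Olfr220 and Olfr1428 with 1.42, 1.38 and 1.34, each marked on 2 of the 3 cordycepin arrays. Olfr898, a probe detected on all 3 serum arrays and on no cordycepin array, went the other way, with -7.29, -6.26 and -6.45 under cordycepin, -4.31, -4.25 and -4.10 under serum and -4.01 and -6.43 without serum. It was the only other olfactory receptor probe called in either direction, of 27 tested.

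The means of serum and no serum came from arrays that the rule did not use, while limma took the spread from all 8 arrays. Of the 61 probes, 48 were detected on all serum arrays and 49 on both no-serum arrays. Any in neither set were tested only through the cordycepin arrays, so the shares that follow are a description. Among the 61, 0 were called higher and 1 was called lower with serum. Over all probes tested, 0.849% were called higher and 0.878% lower (1.73% in either direction). An unadjusted p under 0.05 in limma was found for 5 of the 61 (8.20%), against 10.3% of all probes tested. Of those 5, 2 were among the 11 called higher with cordycepin. The called probe was Olfr978 on chromosome 9 (chr9:39802273-39802332, plus strand), with 1.11 and 0.28 in the absence of serum and -1.41, -1.31 and -1.24 after 30 min of serum. Its groups did not overlap, and it fell by 2.02 on the log2 scale (SE 0.24, limma adjusted p 0.00598). With cordycepin and serum it read -2.18, -2.43 and -1.95, below all other arrays. The differences of the other 60 probes ran from -0.95 for Olfr267 (adjusted p 0.115) to 0.70 for Olfr700 (adjusted p 0.564), and their smallest adjusted p was that of Olfr267.

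Against the no-serum arrays, which the serum comparison shares, cordycepin and serum gave 9 of the 61 called higher and 1, again Olfr978, lower, with 6.48% and 2.99% of all probes tested. The rule used the cordycepin side of this contrast too, and nothing is read from these counts.

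A second probe with the same gene name was available for 7 of the 61 genes, and none of these 7 was detected on all cordycepin arrays. Those named for Olfr373 and Olfr612 lie 42120 and 21166 bases from the detected probe, and the other 5 within 575 bases. Those of Olfr1036, Olfr1115, Olfr1382, Olfr1388, Olfr373 and Olfr612 were on no cordycepin array, and that of Olfr681 was on 1. The second Olfr1388 and Olfr1382 probes lie 60 bases upstream of the detected probes and do not overlap them. They are shown to set them against the detected probes above, and they hold no stretch of 8 bases in common with the Olfr1393 probe.

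Olfr1388, second probe, chr11:49258126-49258185: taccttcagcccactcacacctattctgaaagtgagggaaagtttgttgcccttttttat

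Olfr1382, second probe, chr11:49349459-49349518: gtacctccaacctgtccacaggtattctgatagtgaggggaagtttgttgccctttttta

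The second Olfr1388 probe read -7.30, -7.80 and -7.53 with cordycepin and -7.99, -7.26 and -7.77 with serum. The second Olfr1382 probe read -7.34, -7.86 and -7.61 and -8.05, -7.33 and -7.85. Both were at the floor on all 8 arrays, where the member probes of the same genes were detected with cordycepin. For Olfr1036 the second probe, 575 bases downstream, was at the floor as well.

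**Figure D3:**
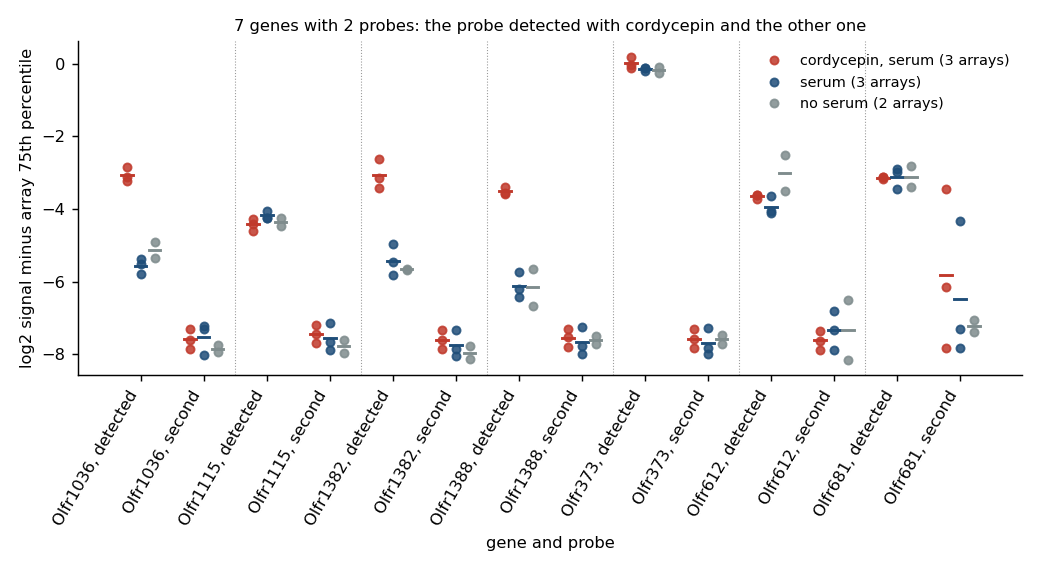
Signal on each of the 8 arrays for the 7 genes with 2 probes, as log2 signal minus the array's 75th percentile, with points for arrays and short lines for group means. The probe detected with cordycepin lies between about -5 and 0 on the cordycepin arrays, while the second probe of 6 genes lies between about -8.2 and -6.5 on all arrays and that of Olfr681 reaches -3.47 on 1 cordycepin array.

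Among other probes similar in sequence to the called ones, most were undetected and some were not. In the chromosome 11 row, the Olfr1383 probe matched that of Olfr10 at 43 of 49 bases and was on no cordycepin or serum array. Olfr351, the probe outside the chromosome 11 row most like that of Olfr1393, matched it at 45 of 60 bases and was on no cordycepin or serum array, as were those of Olfr281 and Olfr231 with 42 of 60. The Olfr1499 probe matched that of Olfr1382 at 46 of 57 bases and was also undetected. The Olfr1368 probe, which matched that of Olfr1382 at 42 of 54 bases, was on all cordycepin and serum arrays, and that of Olfr1396, with 43 of 59, was on 1 of each. No olfactory receptor probe matched that of Olfr921 at more than 42 of 59 bases, and the closest, Olfr936, averaged -7.60 with cordycepin. Whether the chromosome 11 probes bind RNA of their own genes or of each other's was not tested. The base composition of the detected probes had a median of 45% G or C, from 35 to 55%, against a median of 40% among the other olfactory receptor probes.

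What lay upstream was then read from the probe positions. Of the 60 mapped probes, 46 had another olfactory receptor as the nearest probe upstream on the same strand, and the other 14 had some other gene. Within 100 kb, 21 of the 60 had a same-strand upstream probe that was no olfactory receptor, and for 11 of them that neighbour was detected on all serum arrays. This held for 5 of the 11 called probes (45.5%), 6 of the other 49 (12.2%) and 118 of the 1101 mapped probes that were not among the 61. On the opposite strand, 1 of the 11 and 5 of the 49 had a detected upstream neighbour, and downstream on the same strand 0 of the 11 and 7 of the 49 did. Several probes share a neighbour, since the 21 neighbours are 19 distinct probes, and the 11 were themselves chosen by their signal, so these shares carry no test.

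None of the upstream neighbours was called. Of the 19 distinct neighbours, 9 were tested, limma called 0 of them higher with cordycepin, against 7.63% of all probes tested, and 1 had an unadjusted p under 0.05. That was Fam160a2, a subunit of a complex that links vesicles to motors, 34.3 kb upstream of Olfr691, whose 3′ probe read 0.56, 0.77 and 0.33 with cordycepin and -0.34, -0.25 and -0.39 with serum. It rose by 0.88 (SE 0.13, limma adjusted p 0.0023), short of the 2-fold limit for a call, while a Fam160a2 probe 7.40 kb further upstream fell by 0.72 (SE 0.14, limma adjusted p 0.00684).

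The longest row was on chromosome 11. Mgat1, the enzyme that starts the synthesis of complex N-glycans, lies 18.1 kb upstream of the Olfr1393 probe and 55.5 kb upstream of Olfr10 on the same strand, with 181.8 kb to Olfr1388 and 273.1 kb to Olfr1382. Its signal was 6.04, 5.72 and 5.74 with cordycepin and 6.03, 6.15 and 5.95 with serum, a difference of -0.21 (SE 0.13, limma adjusted p 0.286). The receptors between them were not detected: Olfr1391 and the probes of Olfr1387, Olfr1386, Olfr1385, Olfr1384 and Olfr1383 were on no cordycepin array, and those of Olfr1390 and Olfr1389 were on 1. The row was thus interrupted, with signal at 4 of its probes and undetected probes between. Downstream of Olfr1382, the Olfr1380 probe was on 2 of the 3 cordycepin arrays and on 1 serum array.

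On chromosome 9, Vwa5a, a protein with a von Willebrand factor A domain, lies 13.4 kb upstream of Olfr920 and 33.0 kb upstream of Olfr921. Its 2 probes differed by 0.10 and 0.18 between cordycepin and serum (limma adjusted p 0.574 and 0.289). Olfr920, also among the 61, read -4.31, -4.57 and -4.20 with cordycepin and -4.85, -6.23 and -4.58 with serum, a difference of 0.86 that was not called, and the next receptors downstream of Olfr921, Olfr922, Olfr923, Olfr924, Olfr26 and Olfr926, were on no array.

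**Figure D4:**
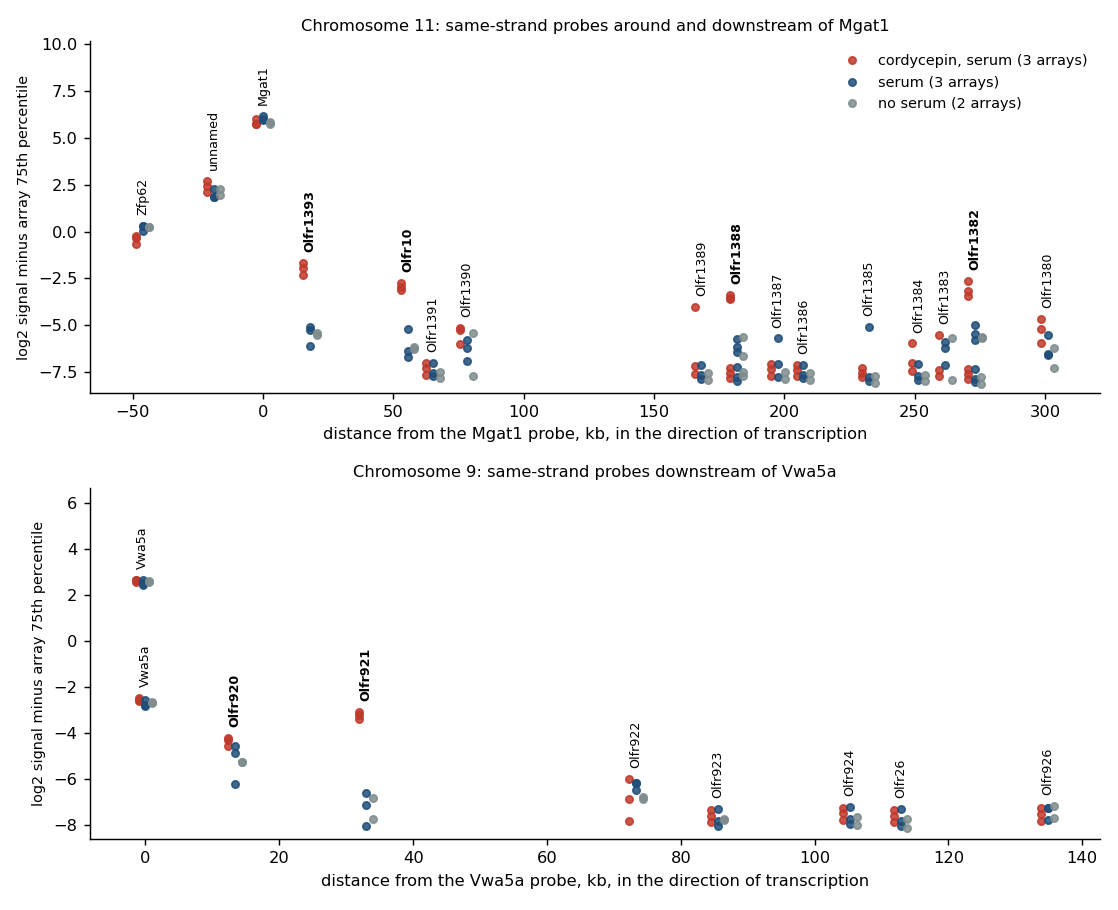
Signal on each array, as log2 signal minus the array's 75th percentile, of same-strand probes by their distance in kb from the Mgat1 probe (upper panel) and the 3′-most Vwa5a probe (lower panel), in the direction of transcription, with the detected receptors in bold. Mgat1 and Vwa5a overlap between groups, Olfr1393, Olfr10, Olfr1388, Olfr1382 and Olfr921 are separated from the other groups, and most other receptors lie near -7.5 on all arrays.

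For the remaining called probes the nearest same-strand gene upstream other than a receptor was farther away or undetected. For Olfr267 it was AI314180, named Ecpas by RefSeq and an adaptor of the proteasome, at 76.8 kb, with a difference of -0.24 (SE 0.19, limma adjusted p 0.419). For Olfr1443 it was Gm4952 at 56.0 kb, which was on no array, followed by the detected gene Fam111a at 94.1 kb. Olfr1036 and Olfr1500 had none within 150 kb. For Olfr449 it was Tas2r126, a bitter taste receptor 403.4 kb upstream, which was on all 3 cordycepin arrays and none of the other 5. Tas2r126 was at least 2.27-fold higher with cordycepin than with serum, and it passed the filter for testing only through the cordycepin arrays. The nearest detected gene beyond it was Zyx, the focal adhesion protein zyxin, at 480.4 kb, which fell by 0.65 (SE 0.12, limma adjusted p 0.00699). Tas2r126 and Zyx were named after their values were seen.

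Detected upstream neighbours were also found close to receptors that were not called. A probe named for Chtop, a chromatin-associated RNA export factor, lies 6.77 kb upstream of Olfr1419 and differed by 0.03, while Olfr1419 differed by -0.88. Ubd, a ubiquitin-like modifier, lies 30.1 kb upstream of Olfr96 and differed by 0.15 (SE 0.14, limma adjusted p 0.497). Zfp560, a zinc finger gene, lies 31.7 kb upstream of Olfr18 and differed by 0.19, and Rrm1, the large subunit of ribonucleotide reductase, lies 86.2 kb upstream of Olfr549 and differed by -0.03. A detected gene upstream was thus present beside receptors of both kinds.

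The genes through which these receptors signal were detected in part. Of 20 genes of olfactory sensory neurons and odorant signalling, the brightest probe was on all cordycepin arrays for 11, on all serum arrays for 9, on both no-serum arrays for 11 and on no array for 7, among them Adcy3, the odorant adenylyl cyclase, the channel subunit Cnga4 and the receptor chaperone Rtp1. Of the 12 tested, 3 were called higher with cordycepin and 0 lower, against 7.63% and 2.87% of all probes tested. Gnal rose by 2.47 (SE 0.32) and Cnga2, the main channel subunit, by 2.10 (SE 0.17). Stoml3, a stomatin-like protein of olfactory cilia, was on no serum array and was at least 1.34-fold higher. Omp, the marker protein of mature olfactory neurons, was detected on all 8 arrays, with a difference of -0.21. Among the other genes tested, Ric8b, Emx2, Gng13 and Gfy differed by -0.57, -0.53, -0.33 and -0.28, and Cngb1 and Rtp2 by 0.07 and 0.11. The tested genes of the list thus differed in both directions. The summed signal of the 20 genes was 4.06 to 4.14 on the cordycepin arrays, 3.88 to 4.21 with serum and 3.96 to 4.10 without, so that the groups overlapped. This sum rests mainly on its brightest genes, Ebf1 (2.91 with cordycepin) and Slc8a3 (2.89), which differed by -0.38 and 0.85. Gnal and Cnga2 read -2.56 and -3.02 with cordycepin, so the overlap says little about them.

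The summed signal of 5 macrophage and leukocyte genes, of which 3 were detected in each group, was 3.03 to 3.39 with cordycepin, 1.28 to 1.32 with serum and 1.27 to 1.43 without. Cd68 alone was called, while Csf1r and Cd14 differed by 0.52 and -0.28 and Tyrobp was on no array. That of 5 neuronal genes, of which 4 were detected in each group, was 3.99 to 4.42, 3.58 to 3.70 and 3.44 to 3.85, with none called. That of 6 epithelial genes, of which Cdh1, Krt5 and Krt18 were on no array, was -2.46 to -2.22, -2.87 to -2.62 and -2.53 to -2.34, and that of the 11 fibroblast genes was 11.4 to 11.7, 11.3 to 11.5 and 11.1 to 11.3, with none called in either. Their part in the receptor values was not tested.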

How the data were processed

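Total RNA was labelled with Cy3 and hybridised to 8 one-colour mouse arrays on 1 slide, read in 1 scan. Per the file headers, the deposited intensity values are the processed signals of Agilent Feature Extraction 10.7.3.1, background-subtracted by the authors' scanner software with surrogates for dim spots, and probe positions are in mm9. The 3 samples with cordycepin, 3 with serum and 2 without were grouped by title. The study's design text calls the replicates independent.

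Control spots (3671 of 62976) were left out, spots with an outlier flag were dropped on their array, and the other spots of a probe were averaged, which gave 55681 probes. The log2 of the deposited signal, minus each array's 75th percentile (350 to 802 units), was fitted with limma 3.58.1 in R 4.3.3 over all 8 arrays with 1 mean per group, for the 30853 probes detected throughout at least 1 group, with Benjamini-Hochberg adjustment. The number of arrays limits the precision, and within groups they correlated at 0.992 to 0.995. Where a probe was well above background on no serum array, the fold is given as a lower bound. It sets the cordycepin mean against, per array, the higher of the probe's own signal and the lowest signal well above background. The fit was tested on simulated data.

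The members and lists were chosen with earlier results of these data known. Named were the 12 brightest members, those not detected without cordycepin, those nearest the detection limit, Olfr978, Olfr898 and their upstream neighbours. The other called members, their second probes and similar probes were named after their values were seen. Neighbours were the nearest probes of another name by position, within 100 kb. RefSeq names come from the GRCm38 table, in which 59 members matched an accession, and no coordinates were taken from it. Alternatives changed the detection flag, background correction, scaling, filter, fold limit, block, arrays fitted and neighbour distance, and left out each array in turn.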

Additional observations from a re-analysis of the deposited data

How the results depend on the processing

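Of 72 recomputed counts, 66 stayed within 1.5 times the reported count, and 0 called differences of named probes reversed. Differences near 0 that were not called changed sign in places, as for Olfr544 (0.12, and -0.04 without the third cordycepin array or the first serum array) and Vwa5a (0.18, and -0.03 with quantile normalisation). With the weaker mark of a signal significantly above background, 193 olfactory receptor probes in place of 61 were detected on all cordycepin arrays, and 155 of them on all serum arrays. With normexp, 3 were called higher. Without a minimum fold, 1 upstream neighbour (Fam160a2) was called. Leaving out each array in turn gave 63 to 74 members, 48 to 53 detected on all serum arrays, 9 to 11 called higher and 0 upstream neighbours. For serum against no serum it gave 1 to 2 called probes, with Olfr700 added without the first serum array and Olfr612 without the first no-serum array. Counting a probe as detected when any of its spots was, chosen after seeing the data, gave 63 and 49. Centring on 7 spike-in probes gave 8 called higher and quantile normalisation 9, and these moved the median of all probes between cordycepin and serum from 0.10 to 0.05 and 0.003.

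The labels number the replicates alike in each group, but arrays of the same number correlated at only -0.18 to 0.23 over 7 pairs after removal of group means, so the numbers were not taken as pairs. With the replicate block, 11 probes were called higher with cordycepin, 1 was called with serum, and 0 upstream neighbours were called.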

Other observations

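Other receptor and tissue-restricted gene families were detected at their own rates. Of 297 vomeronasal receptor probes, 28 were on all cordycepin arrays and 31 on all serum arrays, with 1 called higher of 37 tested. Of 40 taste receptor probes, 6 and 5 were detected, with 2 called higher of 8 tested. None of 15 trace amine receptor probes was on all arrays of any group. Of 65 keratin-associated protein probes, 20 and 19 were detected, with 3 called higher of 21 tested. Of 49 beta-defensin probes, 3 and 4 were detected, and in limma 0 of 5 tested were called. Over all probes, 51.9 and 49.7% were detected on all cordycepin and all serum arrays, and 7.63% of those tested were called higher. Probes detected only with cordycepin, such as Tas2r126, were tested only through those arrays, so nothing is read from the calls.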
